A study of Homo sapiens with 17 samples.

Results

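The unfolded protein response genes were the 10 genes HSPA5, HSP90B1, DDIT3, ATF4, ATF6, XBP1, ERN1, DNAJB9, HERPUD1 and TRIB3, taken by symbol from 62754 gene identifiers in the count tables. All 10 were among the 19473 genes tested. The cells were IMR90 ER:RAS, human lung fibroblasts that carry a retroviral fusion of the estrogen receptor with RAS G12V, which 4-hydroxytamoxifen (4OHT) switches on and which the study uses as a model of oncogene-induced senescence. All 3 groups carried this fusion. DMSO siNT (n = 5) had vehicle and a nontargeting siRNA, 4OHT siNT (n = 6) had 4OHT and the nontargeting siRNA, and 4OHT siSMARCA4 (n = 6) had 4OHT and an siRNA against SMARCA4, an ATPase of the SWI/SNF chromatin remodelers. The siRNA went in 1 day before 4OHT or DMSO, and RNA was taken 7 days after it. No vehicle group with siSMARCA4 was analysed here, so the knockdown is described in cells with active RAS alone.

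The unfolded protein response adjusts the folding capacity of the endoplasmic reticulum (ER) to its load. Misfolded protein draws the chaperone HSPA5 (BiP) away from 3 sensors: ATF6 is cut to free a transcription factor, ERN1 (IRE1) splices the XBP1 mRNA into a form that codes for an active factor, and EIF2AK3 (PERK) slows translation while ATF4 protein is made. XBP1 and ATF6 act on chaperone and degradation genes, and ATF4 acts on amino acid genes, on DDIT3 (CHOP) and on TRIB3. Gene-level counts hold neither XBP1 splicing nor the cleavage, phosphorylation or translation of the sensors and factors, so only mRNA amounts are described.

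The genes were located in GRCh38 with GENCODE 44. Of the sensors, ATF6 (ENSG00000118217) lies at chr1:161766298-161977574 on the plus strand and ERN1 (ENSG00000178607) at chr17:64039080-64130819 on the minus strand. Of the transcription factors, XBP1 (ENSG00000100219) lies at chr22:28794555-28800597 on the minus strand, ATF4 (ENSG00000128272) at chr22:39519695-39522683 on the plus strand and DDIT3 (ENSG00000175197) at chr12:57516588-57521737 on the minus strand. The chaperones are HSPA5 (ENSG00000044574) at chr9:125234853-125241382 on the minus strand, HSP90B1 (ENSG00000166598) at chr12:103930107-103953931 on the plus strand and the co-chaperone DNAJB9 (ENSG00000128590) at chr7:108569867-108574850 on the plus strand. The degradation gene HERPUD1 (ENSG00000051108) lies at chr16:56932142-56944864 on the plus strand, and TRIB3 (ENSG00000101255) at chr20:362835-397559 on the plus strand.

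Sites that unfolded protein response factors are known to recognise were searched in RefSeq promoter windows (GRCh38.p14, 250 bases before to 50 after each start), which were at hand for all 10 genes. The letters searched on both strands were CCAAT and CCACG with 9 bases of any kind between them (ER stress element, ERSE), ATTGG and CCACG with 1 base between them (ERSE-II), TGACGTGG (a site of XBP1 and ATF6) and TGATGCAA (a composite site of ATF4 and C/EBP proteins). ERSE and ERSE-II share the letters CCACG. The matches are shown because they divide the 10 genes, with matched letters in capitals.
HSPA5 ERSE, chr9:125241386-125241414, minus strand: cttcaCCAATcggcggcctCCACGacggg
HSP90B1 distal ERSE, chr12:103930211-103930239, plus strand: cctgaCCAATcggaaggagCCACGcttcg
HSP90B1 proximal ERSE in reverse, chr12:103930316-103930344, plus strand: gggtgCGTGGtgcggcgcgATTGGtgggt
XBP1 ERSE, chr22:28800598-28800626, minus strand: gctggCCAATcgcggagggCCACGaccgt
HERPUD1 ATF4 and C/EBP site in reverse, chr16:56931955-56931984, plus strand: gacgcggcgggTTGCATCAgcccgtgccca
HERPUD1 ERSE-II, chr16:56932016-56932044, plus strand: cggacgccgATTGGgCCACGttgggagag

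ERSE was found in HSPA5, XBP1 and, in both orientations, HSP90B1, against 0.0769% of all 35116 windows. The first ERSE letters lay 66 bases before the RefSeq start of HSPA5, 52 before that of XBP1, and 194 and 89 before that of HSP90B1. Both HSP90B1 sites fall in exons of longer HSP90B1 transcripts in GENCODE 44, and the other sites lie outside the exons of their genes. HERPUD1 held ERSE-II, found in 0.0541% of windows, and TGATGCAA, found in 0.866%. TGACGTGG, found in 0.729% of windows, was in none of the 10. The windows of DDIT3, ATF4, ATF6, ERN1, DNAJB9 and TRIB3 held none of these letters, which says nothing about sites elsewhere.

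Between 39109479 and 68978119 fragments were counted per library over genes and repeats. Values below are counts per 1000000 (CPM) of the counts left after the filter on low counts, scaled by TMM, and log2 fold changes and adjusted p-values come from edgeR's quasi-likelihood test with Benjamini-Hochberg adjustment over all genes, where a call is an adjusted p below 0.05. The labels do not say whether replicates were separate cultures, so p-values measure the spread between these libraries, which may be technical. SMARCA4 itself lay between 68.4 and 127 CPM in the 6 knockdown libraries and between 253 and 286 CPM in 4OHT siNT (log2 fold change -1.61 ± 0.13 SE, adjusted p = 5.14e-07). Of 10 fibroblast markers all were tested, and their summed level was 28978 to 35118 CPM in DMSO siNT, 17955 to 27886 in 4OHT siNT and 9461 to 16664 in 4OHT siSMARCA4. With RAS 7 of the 10 fell and 1 rose, and with the knockdown 8 fell. Most of the falling sum came from the collagens COL1A1 (means of 10772, 6294 and 2293 CPM in this order) and COL1A2 (6533, 2043 and 728 CPM), whereas VIM averaged 5985, 5967 and 5720 CPM and FN1 7265, 7608 and 3737 CPM. The 4 epithelial markers summed to 49.5 to 66.4, 12.5 to 15.6 and 8.92 to 12.9 CPM in the same order, nearly all from KRT8 and KRT19, the 3 endothelial markers, mostly VWF, to 0.798 to 1.83, 3.52 to 5.54 and 1.73 to 4.25 CPM, and the 4 leukocyte markers to at most 0.347 CPM, with CD3E at 0 in 16 of 17 libraries. The part of these shifts in the values below was not tested. In bulk RNA, fewer cells of a kind and less RNA per cell cannot be told apart.

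Each replicate label ends in V or VM, whose meaning is not given in the sources used here. All 6 4OHT siNT libraries were VM, as were 3 of 5 DMSO siNT and 3 of 6 4OHT siSMARCA4 libraries, so values from the 12 VM libraries alone are given beside the pooled ones where they add or end a call. The labels also carry a number 2 or 4 after siSMARCA4 and after siNT. What it stands for after siNT is not given in the sources used here, so siNT libraries of the same number may not be matched controls for a knockdown of that number.

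The comparison of 4OHT siNT with DMSO siNT asks what RAS activation does. Both groups carry the fusion, so an effect of 4OHT itself cannot be told apart from that of RAS. Changes described as with RAS are those of this comparison. Of the 10 genes 4 rose, TRIB3, ERN1, DDIT3 and DNAJB9, and 0 fell in edgeR. Across all genes tested 54.4% were called, with 27.0% higher and 27.4% lower, and the members' share of calls was not above this background. At an unadjusted p under 0.05 the members numbered 5, all higher, beside 58.8% of all genes. The ER chaperones HSPA5 and HSP90B1, the sensor ATF6, the factors XBP1 and ATF4 and the degradation gene HERPUD1 did not pass. The median log2 fold change of the 10 was 0.12, beside 0.00 over all genes.

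**Figure D1:**
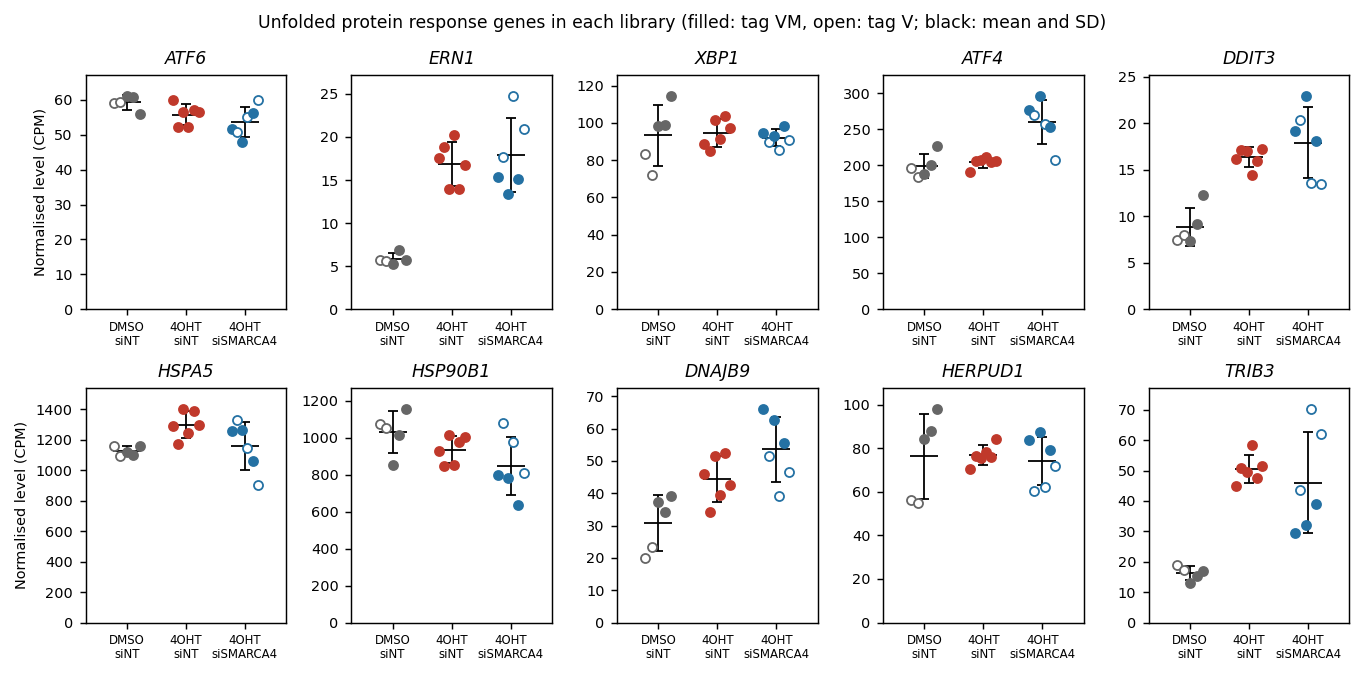
Normalised level in CPM (vertical axes, linear from 0) of the 10 unfolded protein response genes in every library of the 3 groups; filled points are VM and open points V libraries, and black lines give mean and SD. ERN1 and TRIB3 in the 5 DMSO siNT libraries sit below all 12 libraries with 4OHT, whereas ATF6 and XBP1 occupy similar ranges in the 3 groups.

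TRIB3, a pseudokinase that binds AKT and is a transcriptional target of ATF4 and DDIT3, had the largest rise among the members. It measured 18.8, 17.4, 13.0, 15.4 and 16.98 CPM in the DMSO siNT libraries, and from 44.9 through a median of 50.2 to 58.5 CPM in 4OHT siNT. The groups did not overlap, and the fold change was 3.10 (log2 1.63 ± 0.19 SE, adjusted p = 6.84e-07). ERN1, the kinase and endoribonuclease that splices XBP1, measured 5.71, 5.65, 5.26, 6.93 and 5.69 CPM in DMSO siNT. In 4OHT siNT it ran from 13.97 through a median of 17.2 to 20.2 CPM, again without overlap (fold change 2.89, log2 1.53 ± 0.15 SE, adjusted p = 7.53e-08). ERN1 was called, while its substrate XBP1 and the sensor ATF6 were not.

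DDIT3, a C/EBP-family factor linked to cell death under prolonged stress, measured 7.47, 8.04, 7.36, 9.18 and 12.3 CPM in DMSO siNT. All 6 4OHT siNT libraries lay above these, from 14.5 through 16.6 to 17.2 CPM (fold change 1.84, log2 0.88 ± 0.15 SE, adjusted p = 5.32e-05). The call held in each of 11 fits without 1 library, at log2 0.79 to 1.03. A read-through gene on the same strand that overlaps DDIT3 averaged 1.62 CPM.

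DNAJB9 (ERdj4), a co-chaperone that delivers misfolded protein for degradation and restrains ERN1, was called with less margin. It measured 20.005 and 23.4 CPM in the DMSO siNT libraries with tag V and 37.2, 34.1 and 39.2 in those with tag VM, against 34.3 through 44.3 to 52.6 CPM in 4OHT siNT, so the groups overlapped. The pooled log2 fold change was 0.53 ± 0.17 (SE, adjusted p = 0.0148). Within VM it was 0.24 ± 0.13 (adjusted p = 0.143), and without the DMSO siNT library 2-1V or 2-2V it was 0.38 (adjusted p = 0.0673) or 0.42 (adjusted p = 0.0691). Over 13 settings with other processing or libraries, VM among them, DNAJB9 was called in 10. Its log2 fold change ran from 0.03 to 0.86 there, with adjusted p up to 0.888. TRIB3, ERN1 and DDIT3 were called within VM as well, at log2 1.71, 1.47 and 0.73.

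HSPA5, the most abundant ER chaperone of the HSP70 family, measured 1158, 1095, 1121, 1100 and 1158 CPM in DMSO siNT and 1171 through 1292 to 1401 CPM in 4OHT siNT. No library of one group reached the range of the other, yet the shift was small: log2 0.21 ± 0.09 (SE, 95% interval 0.02 to 0.39), with an adjusted p of 0.0542 that missed the threshold. All 4OHT siNT libraries lay above all DMSO siNT libraries for 4 of the 10 members, HSPA5, DDIT3, ERN1 and TRIB3, and for 19.6% of all genes. HSPA5 passed without the 4OHT siNT library 4-1VM (log2 0.24, adjusted p = 0.0387) and in 4 of 13 other settings, over which its adjusted p ran from 0.0116 to 0.649. HSP90B1 (GRP94), the HSP90 of the ER, did not pass and measured 850 to 1155 CPM in DMSO siNT and 847 to 1014 CPM in 4OHT siNT (log2 -0.14, 95% interval -0.38 to 0.11).

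The remaining members were not called in the pooled fit, and their intervals all held 0. For ATF6 the log2 difference was -0.09 (95% interval -0.23 to 0.05), for ATF4 it was 0.04 (-0.14 to 0.21) and for XBP1 0.02 (-0.19 to 0.22), with -0.16 within VM (adjusted p = 0.146). These intervals exclude a change of the size seen for DDIT3. HERPUD1, which helps assemble the degradation complex of the ER membrane, averaged 76.2 ± 19.6 CPM (SD, n = 5) in DMSO siNT and 76.8 ± 4.57 CPM (SD, n = 6) in 4OHT siNT (log2 0.01, 95% interval -0.29 to 0.31). Its equal means hid a split by tag. The DMSO siNT libraries held 56.1 and 54.7 CPM under V and 84.4, 88.0 and 97.9 under VM, and within VM HERPUD1 was called lower in 4OHT siNT (log2 -0.26 ± 0.08 SE, adjusted p = 0.0164). The 4 genes with an ERSE or ERSE-II match, HSPA5, HSP90B1, XBP1 and HERPUD1, were all among the 6 not called in the pooled fit. The exceptions were HSPA5, called higher in the settings above, and HERPUD1, called lower within VM. This is a description of 10 genes and was not tested.

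Knockdown of SMARCA4 in cells with active RAS changed 1 of the 10 genes in the pooled fit: ATF4, the factor made when translation slows, rose. The share of all genes called was 24.2%, with 10.4% higher and 13.8% lower. ATF4 measured from 190 through 206 to 211 CPM in 4OHT siNT and from 207 through 264 to 296 CPM in 4OHT siSMARCA4. A single knockdown library, 4-3V at 207 CPM, fell inside the control range. The log2 fold change was 0.35 ± 0.08 (SE, adjusted p = 0.00326), and it held in 12 of 12 fits without 1 library (0.31 to 0.41) and within VM (0.45, adjusted p = 0.00149). The call was lost in the libraries of number 4 alone (adjusted p = 0.248), where 6.02% of all genes were called. The processed pseudogenes ATF4P1, ATF4P2 and ATF4P3 and the transcribed ATF4P4 reached at most 0.587 CPM in a library, and HSPA5P1, HSP90B2P, HSP90B3P and XBP1P1 at most 0.419.

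The other 9 did not pass: the largest differences in the pooled fit were 0.27 for DNAJB9 (95% interval -0.08 to 0.62), -0.16 for HSPA5 (-0.34 to 0.02) and -0.15 for HSP90B1 (-0.38 to 0.09). Within VM HSP90B1 was -0.33 (adjusted p = 0.0591) and DDIT3 0.31 (adjusted p = 0.12), beside a pooled 0.13 for DDIT3. No member separated the 2 groups without overlap, while 4.54% of all genes lay wholly above and 7.49% wholly below. The knockdown libraries, which mix V and VM, were more spread out than the controls, all VM, for every member but XBP1. The spread over all genes was not compared, and the part of the tag in it was not tested. XBP1 went the other way, with a coefficient of variation of 7.92% in the controls and 4.92% with the knockdown. TRIB3 ran from 44.9 to 58.5 CPM in 4OHT siNT and from 29.4 to 70.2 CPM in 4OHT siSMARCA4, a coefficient of variation of 9.10% against 36.0%. HSPA5 had 6.71% against 13.7%. Its knockdown libraries held 1258 to 1330 CPM with number 2 and 902 to 1145 CPM with number 4, while V and VM overlapped.

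**Figure D2:**
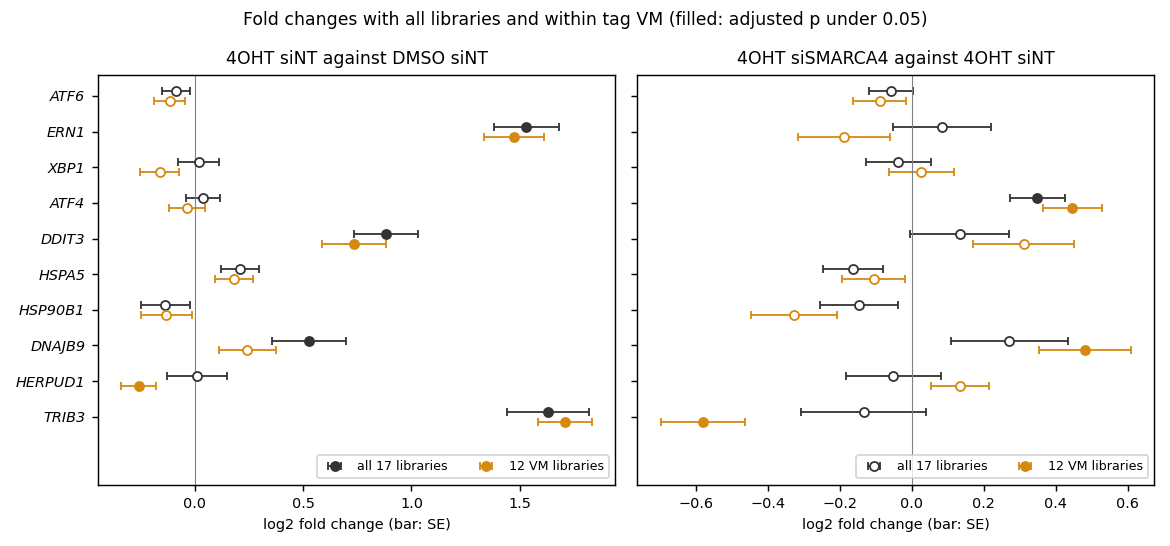
Log2 fold change with SE (horizontal axes) of each unfolded protein response gene for 4OHT siNT against DMSO siNT (left) and 4OHT siSMARCA4 against 4OHT siNT (right), from all 17 libraries (black) and from the 12 VM libraries (orange); filled points have an adjusted p below 0.05. On the left, TRIB3, ERN1 and DDIT3 have filled points in both fits. On the right, ATF4 does, and TRIB3 moves from -0.13 to -0.58.

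Within the VM libraries, where 26.9% of all genes were called, the knockdown comparison read differently for 2 members. SMARCA4 itself was lower in the VM knockdown libraries (68.98, 78.3 and 68.4 CPM) than in the V ones (103, 127 and 82.7 CPM), its knockdown being -1.88 within VM and -1.61 pooled. The part of this split in the member values was not tested. TRIB3 measured 29.4, 32.0 and 38.9 CPM in the VM knockdown libraries, all below the 6 controls, and 43.5, 70.2 and 62.0 CPM in the V knockdown libraries. It was called lower within VM (log2 -0.58 ± 0.12 SE, adjusted p = 0.00275) against -0.13 ± 0.17 (adjusted p = 0.627) in the pooled fit. DNAJB9 measured 66.0, 62.6 and 55.5 CPM in the VM knockdown libraries, all above the highest control of 52.6, and was called higher within VM (log2 0.48 ± 0.13 SE, adjusted p = 0.0134). Both calls also appeared with the tag as a covariate, at -0.47 (adjusted p = 0.0215) and 0.54 (adjusted p = 0.00345). Since no 4OHT siNT library had tag V, the covariate rests on the other 2 groups.

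The tag itself was then compared, VM minus V with group terms, a test chosen after its values were seen. It called 3 of the 10 members and 1.95% of all genes, 0.698% higher in VM and 1.25% lower. HERPUD1 was 0.51 ± 0.08 higher in VM (log2, SE, adjusted p = 0.00422), DNAJB9 0.57 ± 0.11 higher (adjusted p = 0.0193) and TRIB3 0.57 lower (log2 -0.57 ± 0.13, adjusted p = 0.0345). This fit had no term for the number 2 or 4, which was unbalanced with the tag, as both DMSO siNT V libraries, 2-1V and 2-2V, had number 2. With the number as a covariate these 3 members were called as well. The HERPUD1 call held in 17 of 17 fits without 1 library (0.47 to 0.57). The DNAJB9 call held in 14 and was lost without DMSO siNT 2-1V, 4OHT siSMARCA4 2-1VM or 4OHT siSMARCA4 4-2V (adjusted p up to 0.0683), and the TRIB3 call held in 10 of 17 (adjusted p up to 0.107), being lost without DMSO siNT 2-1V, 4OHT siNT 2-3VM or any 4OHT siSMARCA4 library other than 2-3V. Within single groups no member passed: DMSO siNT alone gave HERPUD1 0.69 (adjusted p = 0.369) with 0 genes called of 16828, and 4OHT siSMARCA4 alone gave TRIB3 -0.79 (adjusted p = 0.0554) with 2.08% of genes called, 0.757% higher and 1.32% lower. At an unadjusted p under 0.05 the members numbered 6 over the 3 groups (3892 of all 19473 genes), 3 in DMSO siNT (9.59% of genes) and 5 in 4OHT siSMARCA4 (3003 of 16644 genes).

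**Figure D3:**
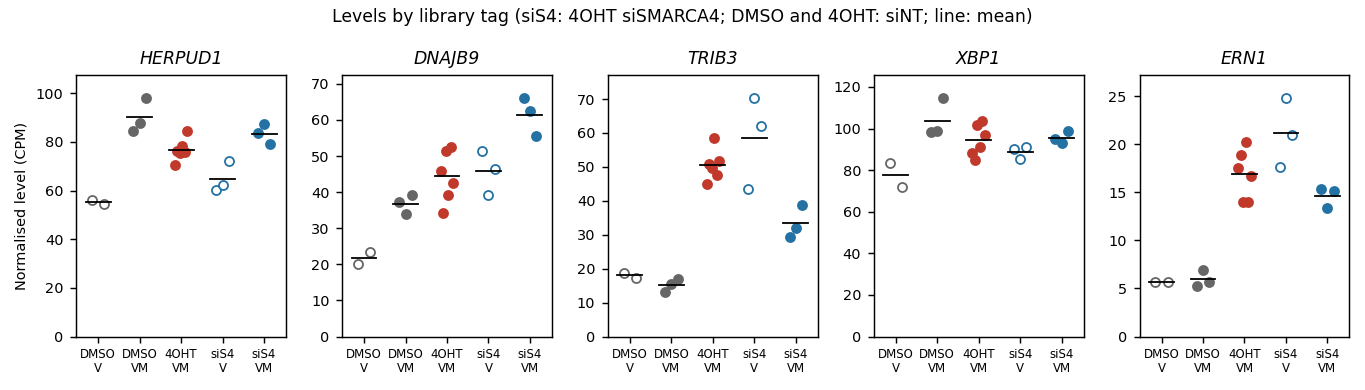
Normalised level in CPM (vertical axes, linear from 0) of HERPUD1, DNAJB9, TRIB3, XBP1 and ERN1, with libraries split by group and tag; points are libraries and lines are means. V and VM libraries of HERPUD1, DNAJB9 and XBP1 do not overlap within DMSO siNT or within 4OHT siSMARCA4, with VM higher, and TRIB3 is lower in VM in both.

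In DMSO siNT and in 4OHT siSMARCA4 alike, every VM library exceeded every V library for HERPUD1, DNAJB9 and XBP1, and fell below every V library for TRIB3. In both groups 2.60% of all genes had VM wholly above V and 2.28% wholly below. XBP1 held 83.4 and 71.9 CPM under V and 98.2, 98.9 and 115 under VM in DMSO siNT (tag effect over the groups log2 0.24 ± 0.08 SE, adjusted p = 0.107). ERN1 and HSP90B1, like 11.7% of all genes, had VM wholly below V in 4OHT siSMARCA4, while in DMSO siNT both overlapped. ERN1 stood at 17.6, 24.8 and 21.0 CPM under V and 15.4, 13.4 and 15.2 under VM in the knockdown libraries, and the difference between groups in this respect was not tested. Of the other 136 genes in the pathway lists below, 7 were called for the tag: HERPUD2, ATF3, SLC3A2, HSPA1A, HSPA1B, HSPA8 and DNAJB1. In 4OHT siSMARCA4 alone 3 were, SLC7A11, HSPA1A and HSPA1B.

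The number 2 or 4 did not give a called difference for any member. In the test of the difference between the knockdown effects of number 2 and number 4, 0 of 10 members and 1.06% of all genes passed with edgeR, and 3 members had an unadjusted p under 0.05, beside 15.5% of all genes. ATF6 measured 51.6, 50.7 and 47.9 CPM with siSMARCA4 number 2 against a mean of 57.8 in the siNT libraries of that number, and 55.1, 56.1 and 59.9 CPM with number 4 against a mean of 53.7. The estimates thus had opposite signs, with a difference of -0.30 ± 0.10 (log2, SE) that was not called (adjusted p = 0.157). All 4OHT siNT libraries together ran from 52.1 to 59.9 CPM. In the same fit over all 17 libraries, ATF6 was called lower for number 2 (-0.21 ± 0.07, adjusted p = 0.0485) and was 0.09 for number 4 (adjusted p = 0.419), but a fit to the libraries of number 2 alone gave -0.17 (adjusted p = 0.0672), not called. DDIT3 measured 19.2, 20.3 and 23.0 CPM with number 2 and 13.6, 18.1 and 13.5 CPM with number 4 (difference 0.46 ± 0.18, adjusted p = 0.245). The effect for number 2 was 0.34 (adjusted p = 0.0788) in the fit over all libraries and 0.38 (adjusted p = 0.0127), called, in the libraries of number 2 alone. Number and tag were unbalanced. The knockdown libraries were 2-1VM, 2-3V and 2-3VM for number 2 and 4-2V, 4-2VM and 4-3V for number 4. For DDIT3 the V libraries held 20.3 CPM with number 2 and 13.6 and 13.5 CPM with number 4. The part of the tag in the differences between numbers was not tested. In the fit over all libraries ATF4 was called with number 2 (0.48, adjusted p = 0.00135, beside 19.0% of all genes) and not with number 4 (0.21, adjusted p = 0.123, beside 16.1%), and the difference between them was 0.28 ± 0.12 (adjusted p = 0.294).

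Against DMSO siNT, the 4OHT siSMARCA4 libraries were called higher for 5 members and lower for 1, beside 55.1% of all genes, 26.5% higher and 28.6% lower. This comparison shares its libraries with both others and is given for its own values. ERN1 (log2 1.61 ± 0.15 SE, adjusted p = 3.28e-08), TRIB3 (1.496 ± 0.19, adjusted p = 1.73e-06) and DDIT3 (1.01 ± 0.15, adjusted p = 1.05e-05) were higher without overlap, as were 16.5% of all genes, while 19.9% lay wholly below. DNAJB9 (0.80 ± 0.17, adjusted p = 0.000674) and ATF4 (0.39 ± 0.08, adjusted p = 0.000483) were higher with overlap. HSP90B1 was called lower (-0.28 ± 0.11, adjusted p = 0.0419). It measured 634 through 803 to 1078 CPM with the knockdown, and its call was lost in 8 of 11 fits without 1 library, at -0.21 to -0.30 with adjusted p up to 0.0986, holding only without DMSO siNT 2-2VM, 4OHT siSMARCA4 2-3V or 4OHT siSMARCA4 4-2V. Within VM HSP90B1 was -0.46 (adjusted p = 0.014), and TRIB3 and ERN1 were still called, at 1.13 and 1.28. In the libraries of number 4 alone DDIT3 (0.48, adjusted p = 0.0764), DNAJB9 (0.35, adjusted p = 0.135), ATF4 (0.15, adjusted p = 0.399) and HSP90B1 (-0.44, adjusted p = 0.0758) lost their calls. HERPUD1 was called lower there (-0.39, adjusted p = 0.0442), beside 38.2% of all genes called. The DMSO siNT libraries of number 4 were only 4-2VM and 4-3VM, and the knockdown ones 4-2V, 4-2VM and 4-3V. Tag and group were thus unbalanced in this fit, and the part of the tag in these changes was not tested.

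Levels of different genes were compared per kb of the canonical GENCODE 44 transcript. In DMSO siNT the order of mean CPM per kb ran from HSP90B1 (370.0 ± 40.6, SD) through HSPA5 (287 ± 7.74), ATF4 (140.3), XBP1 (52.1), HERPUD1 (26.7), DNAJB9 (12.8), DDIT3 (9.82), ATF6 (7.94) and TRIB3 (6.92) to ERN1 (0.741 ± 0.080). DNAJB9 overlapped DDIT3, DDIT3 overlapped ATF6 and ATF6 overlapped TRIB3, and all other neighbours were apart in all 5 libraries. In 4OHT siNT TRIB3 moved from ninth to sixth place at 21.4 CPM per kb, overlapping its neighbours HERPUD1 and DNAJB9, and DDIT3 (18.1) stood clear of ATF6 (7.46). HSP90B1 (337) and HSPA5 (331) overlapped there and in 4OHT siSMARCA4 (304 and 296). ERN1 stayed lowest in the 3 groups, at 2.14 CPM per kb in 4OHT siNT and 2.27 in 4OHT siSMARCA4, apart from ATF6 in each.

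Around the 10 members, 8 lists of pathway genes, which held every member but ATF4, and the members themselves came to 146 genes, all tested. In 4OHT siNT against DMSO siNT 60 were called higher and 27 lower (59.6% called, beside 54.4% of all genes), and with the knockdown 18 higher and 20 lower (26.0%, beside 24.2%). The knockdown split changed with the setting. Number 4 alone gave 10 higher and 2 lower (beside 6.02% of all genes), and no filter 18 and 7 (beside 8.58%). Leaving out 4OHT siNT 4-1VM gave 9 and 13. Over the 12 fits without 1 library, the calls among all genes also moved, from 3717 to 5250. The lists share some members, and a list's count is a description.

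Among 12 sensors and activators, 4 rose with RAS and 2 fell. EIF2AK3, the sensor kinase upstream of ATF4, rose from 16.5 to 21.4 CPM (log2 0.37 ± 0.10 SE, adjusted p = 0.00351), and TRAF2, an adaptor that binds active ERN1, rose from 10.99 to 15.7 CPM (0.52). CREB3L1, an ATF6-like factor of secretory cells, fell from 251 to 141 CPM (-0.83 ± 0.09, adjusted p = 1.65e-07). With the knockdown 2 rose and 4 fell in this list. CREB3L1 fell further to 104 CPM (-0.44, adjusted p = 0.00102), CREB3 fell from 99.6 to 68.8 CPM (-0.53, adjusted p = 0.000103), and MBTPS1, the protease that cuts ATF6, fell from 169 to 147 (-0.20, adjusted p = 0.0201).

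Of 23 ER chaperones and foldases, 9 rose with RAS and 2 fell (median log2 0.21). HYOU1, a large HSP70-like chaperone of the ER, rose from 156 to 244 CPM (0.64 ± 0.09, adjusted p = 5.05e-06), with the disulfide isomerase PDIA5 (0.43) and the oxidase ERO1A (0.37). The collagen chaperone SERPINH1 fell from 699 to 516 CPM (-0.44, adjusted p = 1.1e-05) and PDIA3 by 0.27. With the knockdown 3 rose and 4 fell. ERO1A rose again from 69.1 to 112 CPM (0.69 ± 0.07, adjusted p = 8.09e-06), as did HSPA13 (0.34) and ERO1B (0.48, which within VM was 0.37 at an adjusted p of 0.0503). SERPINH1 fell to 372 CPM (-0.47) and TXNDC5 by 0.21. Windows of 7 of the 22 list genes with a promoter entry held ERSE, namely CALR, CANX, CRELD2, ERO1B, HSP90B1, HSPA5 and PDIA6, against 0.0916% of 27305 genes. ERO1B was the only called gene of these 7 with RAS. ERSE-II was in the windows of HYOU1 and SDF2L1, against 0.0696% of genes. TGACGTGG was in those of DNAJC10, HYOU1 and TXNDC5, against 0.927%. HYOU1, called higher with RAS above, thus held both sites.

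ER-associated degradation, which returns misfolded protein to the cytosol for the proteasome, had 11 of 22 genes higher with RAS and 0 lower in edgeR. EDEM1, a mannosidase-like protein that marks misfolded glycoproteins, rose from 78.7 to 163 CPM (log2 1.05 ± 0.10, adjusted p = 4.09e-08), EDEM3 from 57.3 to 100.2 CPM (0.81) and SYVN1, the ubiquitin ligase of the pathway, from 79.0 to 112 CPM (0.51). DNAJB9 is the 1 member counted among the 11. With the knockdown 2 rose and 1 fell. Among 21 genes of ER translocation and export 3 were called higher with RAS, 6 lower and 12 not (median -0.13). SRPRA, a subunit of the signal recognition particle receptor, rose by 0.51, TRAM1 fell from 427 to 217 CPM (-0.98, adjusted p = 1.37e-07) and SPCS3 of the signal peptidase by 0.58 (log2 -0.58). With the knockdown 4 rose and 3 fell, among them the channel subunit SEC61A1 (761 to 640 CPM, -0.25).

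**Figure D4:**
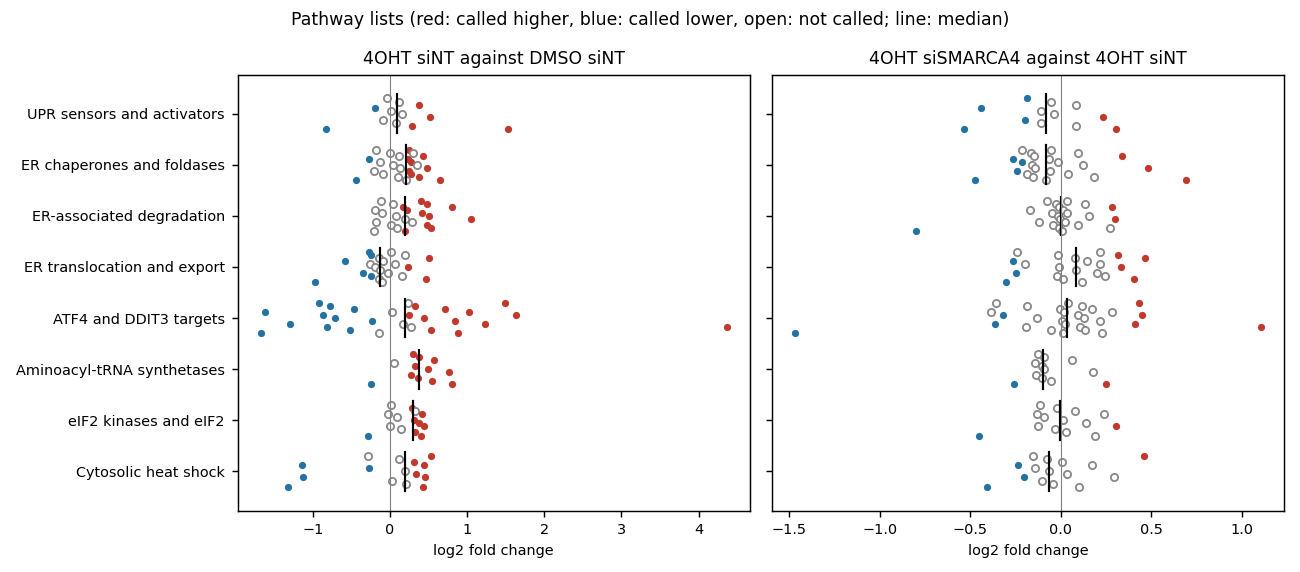
Log2 fold change (horizontal axes) of each gene in 8 pathway lists (rows) for 4OHT siNT against DMSO siNT (left) and 4OHT siSMARCA4 against 4OHT siNT (right); red points were called higher, blue lower, open points were not called, and black lines are list medians. Tested tRNA synthetase genes lie mostly right of 0 on the left panel (median 0.37) and near 0 on the right (-0.10), and targets of ATF4 and DDIT3 spread to both sides.

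Targets of ATF4 and DDIT3 split with RAS: 12 of 28 were called higher, TRIB3 and DDIT3 among them, and 11 lower. GDF15, a stress-induced cytokine, rose from 66.0 to 1361 CPM (log2 4.37 ± 0.16, adjusted p = 1.38e-13), and DDIT4, an inhibitor of mTORC1, from 9.72 to 27.3 CPM (1.49, adjusted p = 2.74e-06). Those that fell furthest without overlap were PHGDH, the entry enzyme of serine synthesis, from 47.9 to 15.003 CPM (-1.68, adjusted p = 8.7e-10), the stress factor NUPR1 (-1.62, adjusted p = 0.001) and PYCR1 of proline synthesis (81.0 to 33.0 CPM, -1.29, adjusted p = 8.45e-11). With the knockdown 4 rose and 3 fell. SLC7A11, the cystine transporter, rose from 53.8 to 116 CPM (1.11 ± 0.20, adjusted p = 0.000805, and 1.53 within VM), and among the knockdown libraries it was higher in VM than in V (1.01 ± 0.11, adjusted p = 0.00894). CEBPG, a partner of ATF4, rose by 0.45 (adjusted p = 0.000737), and ALDH18A1 fell from 96.5 to 77.4 CPM (-0.32).

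Aminoacyl-tRNA synthetase genes, of which several are known ATF4 targets, had 10 of 12 called higher with RAS and 1 lower (median 0.37). TARS1 rose from 141 to 247 CPM (0.80 ± 0.08, adjusted p = 8.96e-08), CARS1 from 85.0 to 145 (0.77) and IARS1 from 256 to 380 (0.57). TGATGCAA was in the windows of 6 of the 10 with a promoter entry (AARS1, CARS1, IARS1, MARS1, NARS1 and TARS1), against 1.08% of genes. It was in 2 of 23 such genes in the list of ATF4 and DDIT3 targets (CEBPG and CHAC1). In the eIF2 list below it was in 1 of 12 (PPP1R15B). AARS1 was the synthetase gene that was called lower. With the knockdown 1 rose, NARS1 (219 to 260 CPM, 0.25), and 1 fell. Among 14 genes for eIF2, its exchange factor, kinases and phosphatase subunits, 7 rose with RAS and 1 fell. The 3 largest rises among those without overlap were EIF2B2 (0.44), EIF2B4 (0.42) and PPP1R15B (0.40). The knockdown lowered EIF2AK4, the kinase that senses uncharged tRNA, from 164 to 119 CPM (-0.45, adjusted p = 0.000353), and EIF2AK3 was the 1 gene of this list called higher (0.31, with overlap).

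The cytosolic heat shock list served for comparison with the ER. With RAS 6 of 15 were higher and 4 lower. HSPA4 (0.53), STIP1 (0.45) and HSF1 (0.44) rose. The small heat shock protein HSPB1 fell from 652 to 297 CPM (-1.13, adjusted p = 4.61e-07), as did HSPA1A (-1.32) and HSPA1B (-1.15), which are near-identical copies whose reads the counting could divide between them. BAG3 fell with the knockdown from 121 to 90.9 CPM (-0.41, adjusted p = 0.000359), where 1 of the 15 rose and 3 fell. Of the 31 non-members named by the rule in the RAS comparison all 31 were called in the same direction within VM, beside 50.5% of all genes called there. Of 16 in the knockdown comparison 15 were, ERO1B being the exception, beside 26.9% of all genes. These genes were picked for large called changes in the pooled fit, which shares the VM libraries. The agreement is therefore no independent check.

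The genes whose log2 CPM over 17 libraries, centred on each gene's mean, came closest to HSPA5 were SDHA, RTCB, SARS1, CTBP1 and RCN1P2, with root mean square differences of 0.092 to 0.098. Those closest to DDIT3 were POLR2H, BOLA2-SMG1P6, UQCC5, BOLA2 and MLPH (0.14 each). BOLA2 and BOLA2-SMG1P6 share sequence with near-identical copies, so their counts are uncertain.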

How the data were processed

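Poly(A)-enriched, directional RNA-seq libraries were analysed. According to the labels and the methods, the authors trimmed reads (cutadapt 4.7), aligned them to GRCh38 (HISAT2 2.2.1) and counted genes and transposable element loci with TElocal, and they deposited expected counts, which were whole numbers here. The methods name Ensembl release 100, but 62700 of 62754 identifiers are GENCODE 44 genes, and 54 have no entry there. Repeat loci were summed to 1261 subfamilies. Rows were kept by filterByExpr (minimum count 10, total 15), leaving 19473 genes and 1026 subfamilies, and scaled by TMM (factors 0.949 to 1.08). edgeR 4.0.16 (R 4.3.3) was fitted to all 17 libraries with 1 term per group, SE being the fold change over the root of F, and intervals using 14 residual degrees of freedom. The script was tested on simulated data. DESeq2 1.42.0 and the other settings are in the closing section. Depth ran from 39109479 to 68978119 fragments per library. No libraries were duplicates (lowest chi-square per gene 4.71). Nearest genes used a pseudocount of 0.5 CPM. The members and lists were chosen with earlier results of these data known. Named list genes were, per list and comparison, up to 3 rises and 3 falls, the largest among called genes without overlap; those of 4OHT siSMARCA4 against DMSO siNT are not repeated. The values of 1 list gene are not reported here.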

Additional observations from a re-analysis of the deposited data

Results flagged for a closer look

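A library was set apart where its gap to the next, over the range of its group, exceeded Dixon's 95% critical value. Chance does this in about 1 in 20 groups, and 12 of 183 gene and group combinations met it, 2 of 30 for the members. ATF4 was lowest in the 4OHT siNT library 2-1VM, at 190.0 CPM beside 205 to 211 in the other 5. ERN1 was highest in the DMSO siNT library 4-2VM, at 6.93 CPM beside 5.26 to 5.71. Neither library decided a call: without them ATF4 stayed called for the knockdown and ERN1 for RAS.

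The other 10 were list genes. The 4OHT siSMARCA4 library 4-3V held 5 of them, low for TRAF2 (9.95 CPM) and CARS1 (126 CPM) and high for TXNDC5 (221 CPM), TRAM1 (294 CPM) and PPP1R15B (67.3 CPM). The 4OHT siSMARCA4 library 4-2V was low for SRPRB (87.8 CPM) and high for CEBPG (39.1 CPM). The DMSO siNT library 4-3VM was high for CREB3 (109 CPM) and HSPB1 (929 CPM), and the 4OHT siNT library 4-3VM for EIF2AK3 (23.7 CPM).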

How the results depend on the processing

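Over the alternatives for the summary counts, 281 values kept within 1.5 times the reported count and 22 did not. The 10 genes gave 3 to 5 calls for 4OHT siNT against DMSO siNT under every setting run. The share of all genes called in this comparison moved more, from 25.4% without a filter to 58.1% with a minimum count of 30. The members were thus above the background in some settings and below it in others. For 4OHT siSMARCA4 against 4OHT siNT the 1 call became 3 within VM (26.9% of all genes called in that fit), 3 with the tag as a covariate (27.4%), 2 in the libraries of siRNA number 2 alone (ATF4 and DDIT3, 22.9%) and 0 in those of number 4 alone (6.02%), the 38 list genes became 25 without a filter and 12 with number 4, and the 4703 genes over all became 1198 with number 4. For 4OHT siSMARCA4 against DMSO siNT, number 4 alone gave 3 members (ERN1 and TRIB3 higher, HERPUD1 lower, beside 38.2% of all genes) and 49 list genes. The tag test gave 0 members in DMSO siNT alone and 0 in 4OHT siSMARCA4 alone.

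Reversed signs were all in differences that were not called in the reported fit. For 4OHT siNT against DMSO siNT, VM libraries gave ATF4 -0.036, XBP1 -0.16 and HERPUD1 -0.26, and the tag covariate -0.020, -0.068 and -0.16. Number 4 alone gave -0.090, -0.27 and -0.27. No filter gave XBP1 -0.013 and HERPUD1 -0.020, a minimum count of 30 gave -0.0050 and -0.012, and HERPUD1 was -0.00039 with RLE size factors and -0.00071 with DESeq2. For the knockdown, VM libraries gave XBP1 0.027, ERN1 -0.19 and HERPUD1 0.13, and the tag covariate 0.085, -0.074 and 0.20. Number 4 alone gave DDIT3 -0.077, ATF6 0.13, XBP1 0.046 and TRIB3 0.12, and number 2 alone HERPUD1 0.10. For 4OHT siSMARCA4 against DMSO siNT, number 4 gave HSPA5 -0.13, number 2 XBP1 0.14 and HERPUD1 0.25, and the tag covariate 0.016 and 0.038. The number difference of DNAJB9 was 0.0040 in the 4OHT libraries alone, and the tag effect in DMSO siNT alone was -0.0099 for HSPA5 and 0.058 for ERN1. The cause was not tested.

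Leaving out 1 library gave, for 4OHT siNT against DMSO siNT, ATF4 -0.016 to 0.089, XBP1 -0.089 to 0.10 and HERPUD1 -0.11 to 0.12. For the knockdown it gave 22 to 39 list genes (22 without 4OHT siNT 4-1VM, 24 without 4OHT siSMARCA4 2-1VM or 2-3VM), beside 3717 to 5250 of all genes. In the same fits ERN1 was -0.032 to 0.15 and HERPUD1 -0.10 to 0.0023. For 4OHT siSMARCA4 against DMSO siNT it gave XBP1 -0.12 to 0.064 and HERPUD1 -0.16 to 0.067. The number difference ran from -0.14 to 0.19 for HSP90B1, -0.27 to 0.071 for ERN1 and -0.13 to 0.12 for DNAJB9. The tag test gave 1 to 4 members, with 1 without DMSO siNT 2-1V, 4OHT siSMARCA4 2-1VM or 4-2V, and HSPA5 -0.026 to 0.11.

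Equal replicate labels gave no uniform sign of pairing: correlations of same-label deviations were -0.45, -0.31 and 0.21 for RAS, 0.05, 0.30 and -0.10 for the knockdown and 0.06 for the third comparison. The deviations were taken from group means that mix tags and numbers unequally, so they cannot exclude pairing. With the full label as replicate block, the knockdown gave 3 members, 20 list genes and 3045 genes (15.6%), and 4OHT siSMARCA4 against DMSO siNT 57 list genes and 6329 genes. In this block ATF4 (-0.0046), XBP1 (-0.084) and HERPUD1 (-0.21) changed sign for RAS and XBP1 (0.021), ERN1 (-0.23) and HERPUD1 (0.15) for the knockdown.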
